A study of Trichoderma reesei with 4 samples.

Results

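The comparison of Trichoderma reesei cultures at 6 h of sporulation with mycelium at 0 h is described here. Weight is on the genes that differed from mycelium by 1 log2 unit or more at 6 h and by less at 3 h. Every feature of the array was used, as the log2 mean at 6 h minus the log2 mean at 0 h. Of 9126 features, 1016 differed between 6 h and 0 h by 1 log2 unit or more, which is a 2-fold change. Of these, 395 differed by less than 1 unit between 3 h and 0 h: 209 were higher at 6 h than in mycelium and 186 were lower. Below, "not at 3 h" means a change under 1 unit at 3 h, not the absence of one.

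All cultures were of strain QM9414, an early cellulase-producing mutant, grown on malt extract agar covered with cellophane. The groups were cultures at 6 h, at 3 h and at 9 h of sporulation and the mycelium at 0 h, each a mean of 2 biological replicas. Their RNA was read on a 1-colour array of the predicted genes with a Cy3 label. No culture kept from sporulating was sampled at 3, 6 or 9 h, so sporulation and time in culture cannot be told apart. In RNA from whole cultures, fewer cells of a kind and less RNA per cell cannot be told apart either.

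Conidia are the asexual spores of filamentous ascomycetes. In Trichoderma, aerial hyphae branch into conidiophores whose flask-shaped phialides bud off chains or heads of green, pigmented spores. The spores are covered with hydrophobins, small secreted proteins that make their surface water-repellent, and the mycelium beneath them redirects carbon into polyols, reserve carbohydrates and secondary metabolites.

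The marker used by the submitters for conidiation, the D-mannitol dehydrogenase gene lxr1, had replicas at 13.84 and 14.04 log2 units at 6 h and at 11.82 and 12.11 at 0 h. The replicas of the 2 times did not overlap, as in 72.6% of all features, and the log2 change was 1.98 ± 0.14 (SE, n = 2 each, adjusted p = 2.33e-05, limma's moderated test). Its mean was 11.96, 13.33, 13.94 and 13.89 at 0, 3, 6 and 9 h. The label of a sporulating culture at 6 h was thus met by the marker. Median levels over all features lay between 11.53 and 11.56 at the 4 times and median SDs between 0.0821 and 0.0992. The median SE of a change between 6 h and 0 h was 0.123, and the number of arrays limits its precision. Here and below, the SE of a change is that of limma's fit. Its spread is pooled over the 4 times and moderated across features, so it is not that of the 2 replicas shown alone.

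A gene is called here when its change reached 1 unit and its adjusted p was below 0.05. By this rule limma's moderated test called 610 features higher at 6 h than at 0 h (6.68%) and 390 lower (4.27%). The median change over all features was -0.03. Of the features with a gene symbol, which are 2.58% of all, 20 were called higher (8.51% of them) and 4 lower (1.7%). Of these symbols 2, cro1 and chi18-12, belong to the 395 features that differed at 6 h and not at 3 h. The features that set 6 h apart from 3 h in this sense are, in these files, almost entirely genes known by an identifier alone. So is the array as a whole, since 2.58% of all features have a symbol.

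**Figure D1:**
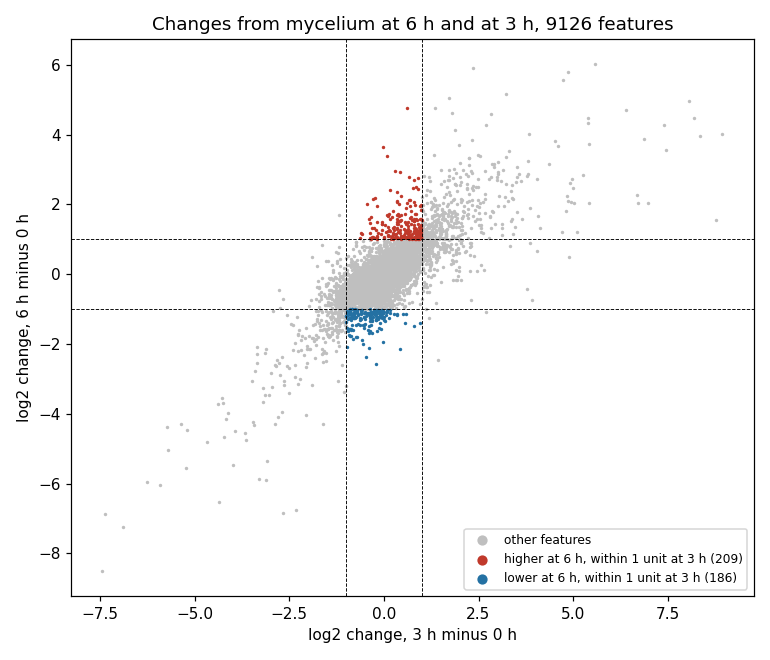
Log2 change from mycelium at 6 h (vertical axis) against that at 3 h (horizontal axis), 1 point per feature, both from means of 2 replicas. Dashed lines mark 1 log2 unit; the 209 red points were higher and the 186 blue points lower at 6 h while inside the bounds at 3 h. Both axes use the same 0 h arrays.

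Among genes without a symbol, the largest rises of the whole comparison that met the naming rule were TRIRE2_106538 and TRIRE2_106490. TRIRE2_106538 had replicas at 12.40 and 12.73 at 6 h and at 6.44 and 6.64 at 0 h, a log2 change of 6.02 ± 0.17 (SE, n = 2 each, adjusted p = 2.98e-07). TRIRE2_106490 had 13.51 and 13.64 at 6 h and 7.66 and 7.90 at 0 h, a change of 5.80 ± 0.13 (adjusted p = 8.24e-08). Both were already far above mycelium at 3 h, with changes of 5.59 for TRIRE2_106538 and 4.88 for TRIRE2_106490.

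The falls included TRIRE2_112567, whose replicas stood at 7.26 and 7.27 at 6 h and at 14.08 and 14.11 at 0 h, a log2 change of -6.83 ± 0.09 (SE, n = 2 each, adjusted p = 8.76e-09). Its mean was 14.10, 11.42, 7.27 and 6.07 at 0, 3, 6 and 9 h, lower at each later time. TRIRE2_80879 had replicas at 7.85 and 8.42 at 6 h and at 14.07 and 14.29 at 0 h, a change of -6.05 ± 0.18 (adjusted p = 4.26e-07). Its mean at 3 h was 8.25, so that nearly the whole fall lay before 3 h. The rule leaves out genes with a low mean over the 4 times, and so passes over larger falls: TRIRE2_82623 at -8.49, TRIRE2_103130 at -7.23 and TRIRE2_103131 at -6.86, all named after their values were seen.

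Genes with a symbol were grouped by function. Of 3 genes for hydrophobins, the spore surface proteins, 2 were called higher. The class II hydrophobin gene hfb3 had replicas at 13.33 and 13.58 at 6 h and at 9.24 and 10.02 at 0 h (log2 change 3.82 ± 0.23, SE, n = 2 each, adjusted p = 1.03e-05). The hydrophobin gene hfb2 had 13.74 and 13.89 at 6 h and 10.81 and 11.51 at 0 h (2.66 ± 0.20, adjusted p = 3.77e-05). For both the groups did not overlap, as in 72.6% of all features, and both were past 1 unit at 3 h. The third hydrophobin, hfb1, had a change of -0.25 and did not pass the test.

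Genes of hydrolytic enzymes were called in both directions. Of 9 cellulases and accessory proteins, 8 were called higher and 0 lower at 6 h, with a median change of 3.72 against -0.03 over all features. The median for these 9 was larger at the other times, at 7.39 at 3 h and 4.57 at 9 h. Of the 9, 0 were within 1 unit at 3 h and past it at 6 h. The acetyl xylan esterase gene axe1 and the mannanase gene man5a were called higher at 6 h by 3.97 ± 0.13 and 1.66 ± 0.19 (SE). At 3 h their changes were 8.34 and 4.08. Of 5 beta-glucosidase genes 1 was called, cel1a, which was higher at 6 h by 1.32 ± 0.25 (SE) and at 3 h by 2.31. The serine protease gene prb1 had replicas at 8.16 and 8.62 at 6 h and at 12.46 and 12.89 at 0 h. Its log2 change was -4.28 ± 0.19 (SE, n = 2 each, adjusted p = 2.26e-06), and the replicas of the 2 times lay over 3 units apart.

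Chitin degradation, which remodels fungal walls, was represented by 20 genes, of which 2 were called higher and 2 lower, with a median change of -0.21. The gene chi18-rel1, related to the family 18 chitinases, had replicas at 13.42 and 13.44 at 6 h and at 12.30 and 12.31 at 0 h, a change of 1.12 ± 0.10 (SE, adjusted p = 1.13e-04). The other called members were faint: chi18-12 averaged 5.88 at 6 h against 4.69 at 0 h, chi18-14 4.48 against 5.71, and chi18-17 4.18 against 5.82. The features of the MAT1-1 mating type, which the QM6a lineage of QM9414 lacks, read between 3.997 and 5.53, so the low values of these chitinase genes lay at or near the level of features without a transcript. Outside the lists, the gene pap1 fell by 5.55 ± 0.20 and ooc1 rose by 3.22 ± 0.19 (SE, n = 2 each, adjusted p = 1.02e-06 for pap1 and 9.18e-06 for ooc1).

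Of 4 genes listed under light response, 2 were called higher at 6 h, and for 1 of these, phr1, the role is in doubt. The photoreceptor gene env1 had replicas at 11.52 and 11.60 at 6 h and at 10.45 and 10.53 at 0 h, a change of 1.07 ± 0.10 (SE, n = 2 each, adjusted p = 1.33e-04). The gene that the table names phr1, whose identity as a photolyase gene could not be checked here, was higher by 1.13 ± 0.14 (adjusted p = 5.73e-04). Of the blue light regulators, blr1 passed the adjusted p with a change of 0.39, under 2-fold, and blr2 had a change of 0.30.

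Many other groups held no gene past both thresholds, and the test on the adjusted p alone, which 39.4% of all features passed (20.0% higher and 19.4% lower, and 49.5% by an unadjusted p under 0.05), describes their smaller changes. In signalling, 0 of 14 genes were called at 2-fold by limma's moderated test, 3 rose by adjusted p alone, a share near that of all features, and 8 had an unadjusted p under 0.05. Those that rose were the adenylate cyclase gene acy1 (0.53), and the G protein alpha subunit genes gna3 (0.41) and gna2 (0.27). The MAP kinase genes tmk1, tmk2 and tmk3 had changes of 0.06, -0.22 and 0.17, and the transcription factor gene ste12 had -0.21. Among 17 protein kinases and phosphatases, 0 were called and 6 had an unadjusted p under 0.05. The histidine kinase gene nik1 rose by 0.65, and cot1, whose Neurospora crassa namesake is needed for hyphal tip growth, fell by 0.34, both by adjusted p.

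Of the 7 regulators of cellulase genes, 0 were called at 2-fold and 4 had an unadjusted p under 0.05, against 49.5% of all features. The activator gene xyr1 averaged 13.05 ± 0.11 at 6 h and 12.45 ± 0.0042 at 0 h (SD, n = 2 each), a rise of 0.60 by adjusted p (1.98e-03). The carbon catabolite repressor gene cre1 rose by 0.36.

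Genes of protein synthesis and turnover that passed the adjusted p were lower at 6 h. Of 42 ribosomal protein genes, 0 were called at 2-fold and 16 fell by adjusted p alone (19.4% of all features did). An unadjusted p under 0.05, found in 49.5% of all features, was reached by 22 of the 42. Their changes ran between -0.69 and 0.22 with a median of -0.31, against -0.03 over all features. The median for the same genes was -0.76 at 3 h and -0.33 at 9 h. Of 7 proteasome and ubiquitin genes, 0 were called, 5 fell by adjusted p alone and 5 had an unadjusted p under 0.05. The 20S proteasome subunit genes psa7 and psb5 fell by 0.63 and 0.58, and the polyubiquitin gene ubi4 had a change of -0.01. Of 3 translation factor genes 0 were called and 1 had an unadjusted p under 0.05, the release factor gene erf1, which fell by 0.47.

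In the secretory pathway, 0 of 12 genes were called at 2-fold and 5 had an unadjusted p under 0.05, against 49.5% of all features. The vesicle SNARE gene snc1 and the unfolded protein response sensor gene ire1 rose by 0.52 and 0.44, and the protein O-mannosyltransferase gene pmt1 fell by 0.41, all by adjusted p. The chaperone gene bip1 had a change of -0.27 and the disulfide isomerase gene pdi1 -0.23.

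Apart from lxr1, the metabolic genes of the lists stayed under the 2-fold threshold. Of 6 genes of glycolysis and central carbon metabolism, 0 were called and 1 had an unadjusted p under 0.05, against 49.5% of all features. Of 5 genes of glycogen and sugar nucleotides, 0 were called and 3 had such a p: the glycogen phosphorylase gene gph1 rose by 0.40, ugp1, for UDP-glucose pyrophosphorylase, rose by 0.44, and mpg1, for GDP-mannose pyrophosphorylase, fell by 0.63. Of 7 genes of amino acid and polyamine synthesis, 0 were called and 3 fell by adjusted p, with asn1 at -0.83, trp at -0.82 and met2 at -0.60. The asparagine synthetase of yeast carries the name ASN1. For the 5 histone genes, 0 were called, 0 had an unadjusted p under 0.05, and the changes lay between -0.02 and 0.13.

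Smaller groups stayed under 2-fold too. Of 9 small GTPase genes 0 were called and 2 had an unadjusted p under 0.05, against 49.5% of all features. Of 6 genes of gluconeogenesis and acetyl-CoA supply 0 were called and 3 had such a p. Among them acu9, which in Neurospora crassa encodes malate synthase, rose by 0.42, and acl2, for a subunit of ATP citrate lyase, fell by 0.39. Of 7 genes of general transcription 0 were called and 1 had such a p, tfiiea, which fell by 0.61. The gene ro-4, which in Neurospora crassa encodes an actin-related protein of the dynactin complex, fell by 0.50. The superoxide dismutase gene sod1 had a change of -0.73 that missed the threshold (adjusted p = 0.0544).

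**Figure D2:**
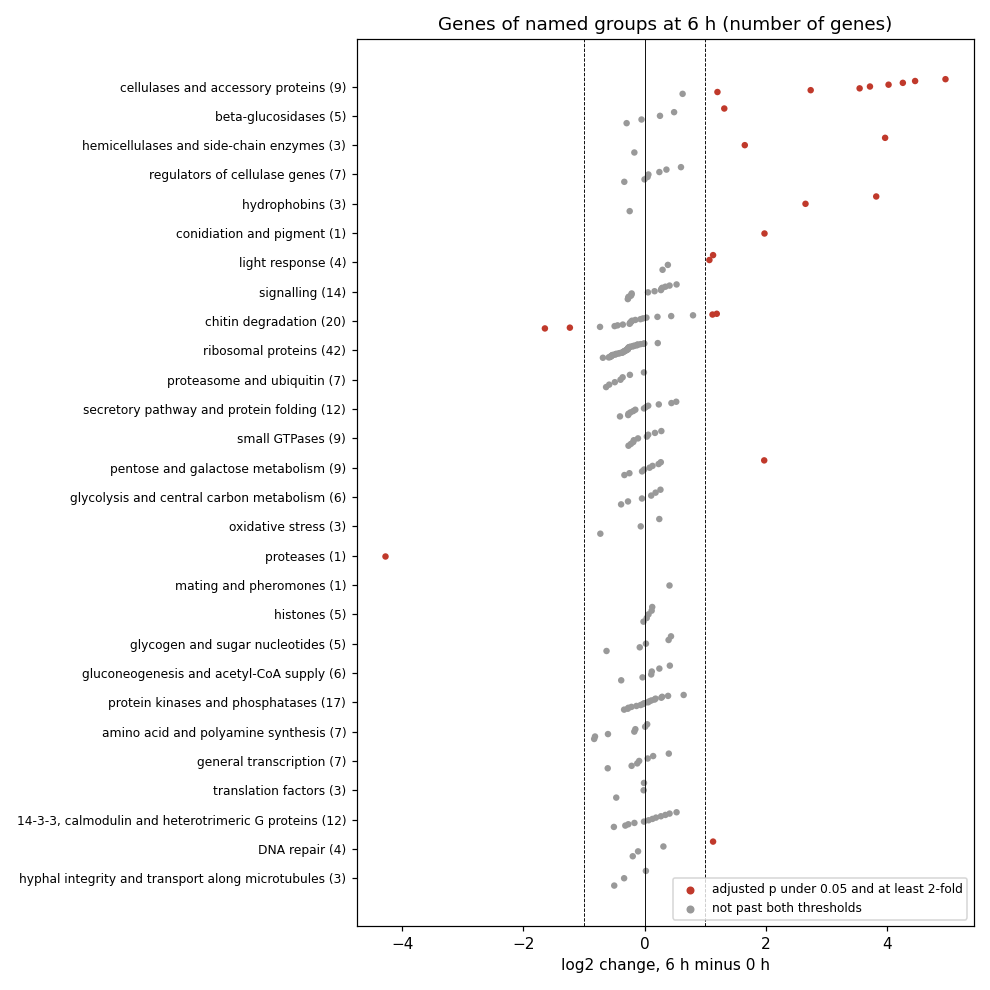
Log2 change at 6 h minus 0 h for the genes with a symbol, 1 line per functional group and 1 point per gene, from means of 2 replicas. Cellulases lie to the right of 1 log2 unit apart from cel5b, while all 42 ribosomal protein genes lie between -0.69 and 0.22.

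The 395 features that differed at 6 h and not at 3 h were chosen on those very values, so their changes at 3 h and 6 h are a description and no test is made of them. The 209 higher ones make up 34.2% of the 612 features higher by 1 unit or more at 6 h, and the 186 lower ones 46% of the 404 lower by 1 unit or more. Limma's moderated test called 207 of the 209 and 172 of the 186 at 6 h, where 11.0% of all features were called, and nothing is read from that since the same values chose them.

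In many of the higher features a smaller change was already measured at 3 h. For 112 of the 209 the change at 3 h was between 0.5 and 1 unit in the same direction, for 94 it was under 0.5 in either direction, and for 3 it was 0.5 or more in the opposite direction. Of the lower ones, 85 of 186 had moved 0.5 to 1 unit in the same direction, 97 less than 0.5, and 4 the opposite way by 0.5 or more. The median change was 1.27 at 6 h and 0.57 at 3 h for the higher features, and -1.18 at 6 h and -0.39 at 3 h for the lower. By adjusted p alone, limma's moderated test already found 113 of the 209 higher at 3 h (54.1%) and 79 of the 186 lower (42.5%).

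Many also lay near a bound. At the 6 h bound the member nearest to it was TRIRE2_78988 with 1.0022, and TRIRE2_57045 with 0.9982 stayed out. On the lower side TRIRE2_45138 with -1.00161 was in and TRIRE2_111466 with -0.99996 out. At the 3 h bound TRIRE2_77878 was in with 0.99396 and TRIRE2_112319 out with 1.00467, while TRIRE2_4561 was in with -0.99973 and TRIRE2_107338 out with -1.00142. A member lay within 1 SE of either bound in 101 of 209 higher features (48.3%) and in 66.1% of the 186 lower ones. Changes of 2 units or more at 6 h were found in 23 of the higher and 6 of the lower.

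The higher features led with TRIRE2_43701. Its replicas stood at 11.89 and 11.97 at 6 h and at 7.15 and 7.17 at 0 h, a log2 change of 4.77 ± 0.11 (SE, n = 2 each), or 27.3-fold. At 3 h they stood at 7.63 and 7.89, and at 9 h at 12.46 and 12.52. Between 3 h and 6 h the replicas moved by over 3 units, and those of 0 h and 3 h lay within 1 unit of each other. The change at 3 h was 0.60 (adjusted p = 0.0032, limma's moderated test).

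TRIRE2_121416 had replicas at 13.90 and 14.03 at 6 h and at 10.60 and 11.39 at 0 h, a log2 change of 2.97 ± 0.25 (SE, n = 2 each). TRIRE2_76682 had 14.30 and 14.36 at 6 h and 11.33 and 11.50 at 0 h, a change of 2.92 ± 0.10. Both kept this level at 9 h, where the changes from mycelium were 3.09 for TRIRE2_121416 and 3.25 for TRIRE2_76682, and both had a change under 0.5 at 3 h.

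TRIRE2_65067 had replicas at 12.16 and 12.30 at 6 h and at 9.75 and 9.77 at 0 h, a log2 change of 2.47 ± 0.15 (SE, n = 2 each). At 9 h it was lower than at 6 h, with replicas at 11.38 and 11.60. TRIRE2_104217 had 10.65 and 10.95 at 6 h and 8.40 and 8.96 at 0 h, and TRIRE2_81420 had 11.09 and 11.33 at 6 h and 9.13 and 9.18 at 0 h. The log2 changes of these genes were 2.12 ± 0.25 for TRIRE2_104217 and 2.06 ± 0.18 for TRIRE2_81420. That their replicas of 6 h and 0 h did not overlap was required by the naming rule. At 3 h the change of TRIRE2_65067 was 0.77 and passed the adjusted p. Those of TRIRE2_104217 and TRIRE2_81420 were 0.68 and 0.35 and did not. The rule passes over fainter members with larger rises, such as TRIRE2_58289 with 3.63 and TRIRE2_112037 with 3.39, named after their values were seen.

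The symbols in this group were cro1 and chi18-12. The gene cro1 had replicas at 13.26 and 13.29 at 6 h and at 11.90 and 12.07 at 0 h, a log2 change of 1.29 ± 0.10 (SE, n = 2 each). In Podospora anserina the gene of this name encodes a UCS-domain protein needed in sexual reproduction. Its mean was 11.98, 12.84, 13.28 and 13.70 at 0, 3, 6 and 9 h, higher at each time than at the one before, so that its place in the group rests on a change of 1.29 at 6 h against 0.86 at 3 h. The chitinase gene chi18-12 had replicas at 5.85 and 5.91 at 6 h and at 4.58 and 4.81 at 0 h.

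Of the falls named by the rule, that of TRIRE2_106686 came first. It had replicas at 10.57 and 10.71 at 6 h and at 13.21 and 13.23 at 0 h, a log2 change of -2.58 ± 0.10 (SE, n = 2 each). At 3 h its replicas stood at 12.97 and 13.05, close to mycelium, and at 9 h at 11.30 and 11.35, above those of 6 h. Its lowest values of the 4 times were thus at 6 h.

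TRIRE2_107037 had replicas at 11.93 at 6 h, equal to 2 decimals, and at 13.81 and 14.06 at 0 h, a log2 change of -2.004 ± 0.14 (SE, n = 2 each). TRIRE2_5614 had 11.06 for both replicas at 6 h and 12.91 and 13.01 at 0 h, a change of -1.90 ± 0.11. TRIRE2_107386 had 8.88 and 9.05 at 6 h and 10.79 and 10.84 at 0 h, a change of -1.85 ± 0.11. All of these were lower still, or as low, at 9 h, with changes from mycelium of -2.13 for TRIRE2_107037, -2.45 for TRIRE2_5614 and -2.05 for TRIRE2_107386. At 3 h their changes were already -0.56, -0.57 and -0.81 in that order, and each passed the adjusted p.

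TRIRE2_1992 had replicas at 11.90 and 11.92 at 6 h and at 13.69 and 13.73 at 0 h, a log2 change of -1.80 ± 0.11 (SE, n = 2 each). TRIRE2_107704 had 11.08 and 11.10 at 6 h and 12.73 and 12.97 at 0 h, a change of -1.76 ± 0.11. The first was at -2.26 at 9 h and the second at -1.003, so TRIRE2_107704, like TRIRE2_106686, was nearer to mycelium at 9 h than at 6 h. At 3 h TRIRE2_1992 was already at -0.73 and TRIRE2_107704 at -0.87, and both passed the adjusted p.

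**Figure D3:**
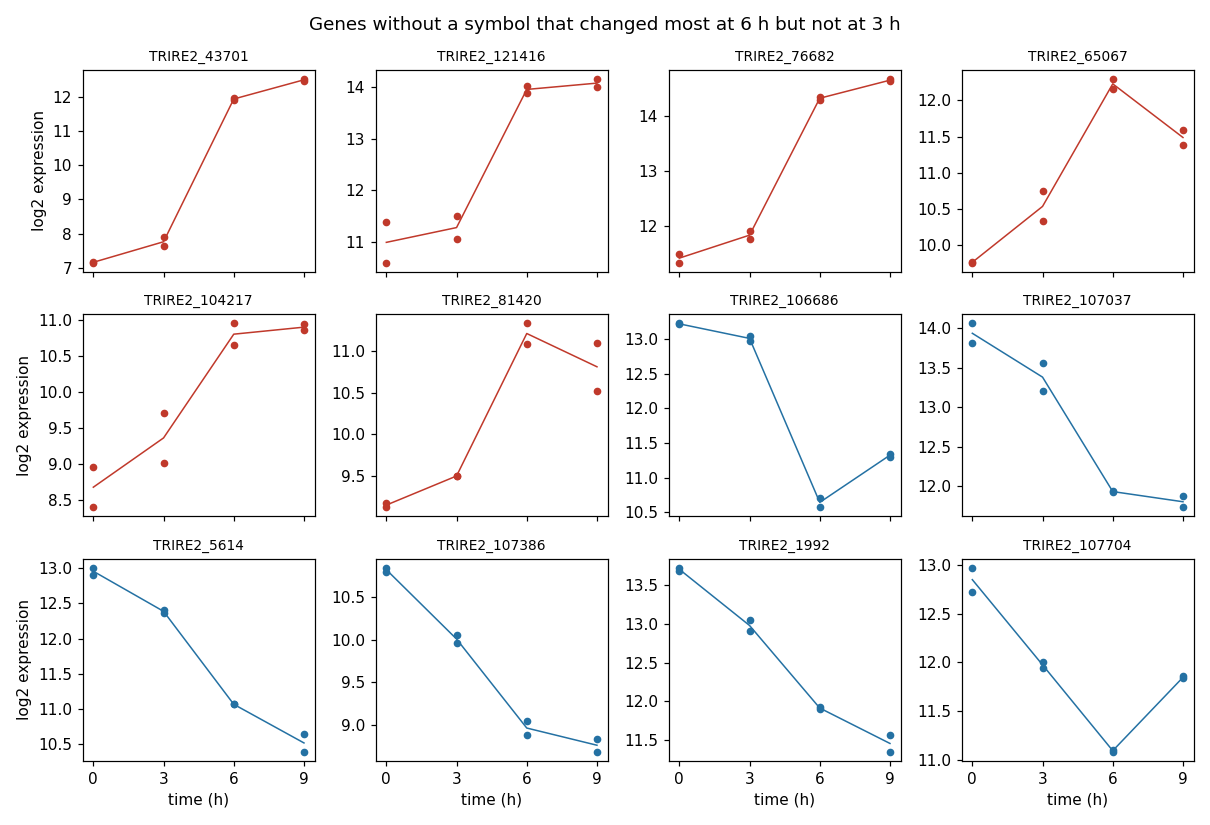
Log2 level of the named genes that differed from mycelium at 6 h and not at 3 h, 1 panel per gene, against time in h. Points are the 2 replicas of each time, computed from the deposited mean and SD, and the line joins the means; the vertical scale differs between panels. TRIRE2_43701 stays under 8 at 0 and 3 h and is above 11 at 6 and 9 h.

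Against 3 h, which also took part in the choice, limma's moderated test found 153 of the 209 higher at 6 h by adjusted p (12.2% of all features) and 94 of the 186 lower (9.51%). At 9 h the median of the higher features was that of 6 h. Their median change from mycelium was 0.57, 1.27 and 1.27 at 3, 6 and 9 h. Limma's moderated test, adjusted over all features, found 23 of 209 higher at 9 h than at 6 h, 19 lower and 167 neither, where 5.33% of all features were higher and 7.98% lower. These comparisons share the 6 h arrays with the choice of the members.

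The lower features differed among themselves in how well their 3 h replicas matched. In 122 of 186 the SD at 3 h was 0.5 or less, and in 64 it was above 0.5. An SD above 0.5 at 3 h was found in 345 features in all, or 3.78%, against 34.4% of the lower members. Of the 64, 63 had a mean level below the 25th percentile of all features (9.63), and among all features that faint 14% had such an SD. This division was made after the values had been seen.

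The 122 with matching 3 h replicas had median levels of 11.27, 10.64, 10.04 and 9.78 at 0, 3, 6 and 9 h, and their median change from mycelium was -1.18 at 6 h and -1.19 at 9 h. The 64 others had median levels of 7.73, 7.43, 6.35 and 7.35. In them the median of the lower 3 h replica was 6.86 and that of the higher 7.98, a spread that the division itself fixes. In 16 of the 64 a 3 h replica lay 1 unit or more below the mean of mycelium. Their median change from mycelium was -0.18 at 9 h, and 14 of the 64 were higher at 9 h than at 6 h by adjusted p, with 0 lower. Of the 122, 15 were higher and 24 lower, and of all features 5.33% were higher and 7.98% lower. The 6 h values that chose these members enter this comparison too, so nothing is read from these counts. The part of replica spread in the low 6 h values of these faint features was not tested.

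**Figure D4:**
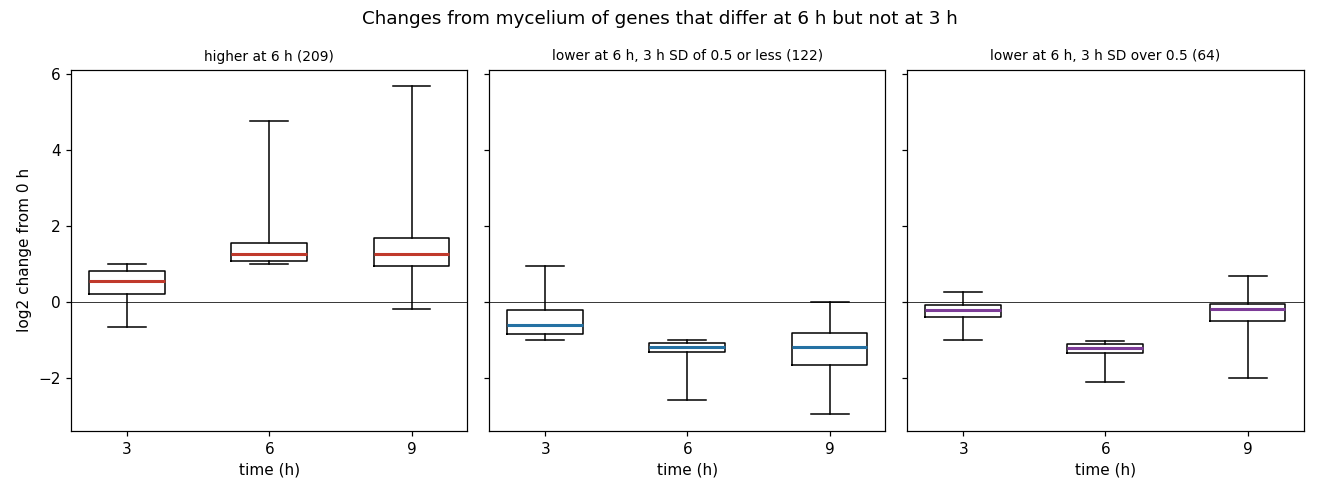
Log2 change from 0 h at 3, 6 and 9 h for the features that differed at 6 h and not at 3 h, split into 209 higher, 122 lower with a 3 h SD of 0.5 or less and 64 lower with a larger one. Boxes span the quartiles, coloured lines are medians and whiskers reach the lowest and highest feature; the median at 9 h is 1.27, -1.19 and -0.18.

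Many members had short genes or low signal. A mean level below the 25th percentile was found in 104 of the 209 higher features and in 112 of the 186 lower ones (60.2%). The annotated gene was shorter than 1000 bp in 52 of 208 higher members with a length (25%) and in 78 of 183 lower ones (42.6%), against 2237 of 9094 features (24.6%). Among faint features alone 702 of 2260 (31.1%) were that short. In the lower features with discordant 3 h replicas it was 36 of 62 (58.1%), and in the others 42 of 121 (34.7%). The mean at 0 h of 30 higher members, and the mean at 6 h of 21 lower members, lay within the range of the MAT1-1 features.

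Some members lay next to each other on the genome. In the order of the RefSeq gene table of the QM6a assembly v2.0, 38 of the 208 higher members in the table (18.3%) had another higher member as a direct neighbour, against 361 of 8908 other genes (4.05%) with a higher member beside them. For the lower members it was 16 of 183 (8.74%) against 344 of 8933 (3.85%). Among all features called higher at 6 h, a larger set, it was 217 of 607 (35.7%) against 10.7% of the other genes, and among those called lower 106 of 389 (27.2%) against 7.3%. Genes side by side are not independent, and no test is made of these shares.

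The longest run of higher members was 5 genes, in the order TRIRE2_73618, TRIRE2_73621, TRIRE2_73623, TRIRE2_43701 and TRIRE2_102497. Their log2 changes at 6 h were 1.28, 1.68, 2.19, 4.77 and 1.46 in that order, while at 3 h they were 0.14, 0.35, -0.23, 0.60 and 0.60. At 9 h the means of all 5 were further from mycelium than at 6 h, at 1.70, 2.30, 3.48, 5.33 and 1.58. By limma's moderated test of 9 h against 6 h, TRIRE2_73618 and TRIRE2_102497 did not pass the adjusted p (0.18 and 0.50). TRIRE2_43701, the member with the largest rise among the 209, is thus 1 of 5 neighbours that passed 1 unit between 3 h and 6 h.

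A run of 4 held TRIRE2_4952, TRIRE2_109793, TRIRE2_66034 and TRIRE2_65819, with log2 changes at 6 h of 1.21, 2.10, 2.69 and 1.998, at 3 h of 0.38, 0.34, 0.79 and 0.81 and at 9 h of 0.99, 1.73, 2.23 and 1.78. Its 0 h means were between 5.82 and 7.58, near the low end of the scale, and the 3 h replicas of TRIRE2_66034 had an SD of 0.95. A run of 3 held TRIRE2_64971, TRIRE2_71823 and TRIRE2_65067, with 1.45, 1.24 and 2.47 at 6 h, 0.89, 0.11 and 0.77 at 3 h and 1.15, 1.04 and 1.73 at 9 h. By their means these runs, unlike the first, were no further from mycelium at 9 h than at 6 h.

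Of the lower members, TRIRE2_59830, TRIRE2_106258 and TRIRE2_106259 formed a run with log2 changes of -1.22, -1.23 and -1.22 at 6 h, -0.78, -0.03 and -0.17 at 3 h and -0.93, -0.85 and -0.81 at 9 h. TRIRE2_64312, TRIRE2_64066 and TRIRE2_4561 formed another, with -1.44, -1.08 and -1.19 at 6 h, -0.63, -0.96 and -0.9997 at 3 h and -1.77, -2.27 and -1.83 at 9 h. TRIRE2_64066 and TRIRE2_4561 had thus moved nearly as far at 3 h as at 6 h. Runs were picked for their length after the values had been seen. The files give these genes no product, so no function is assigned to any run.

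**Figure D5:**
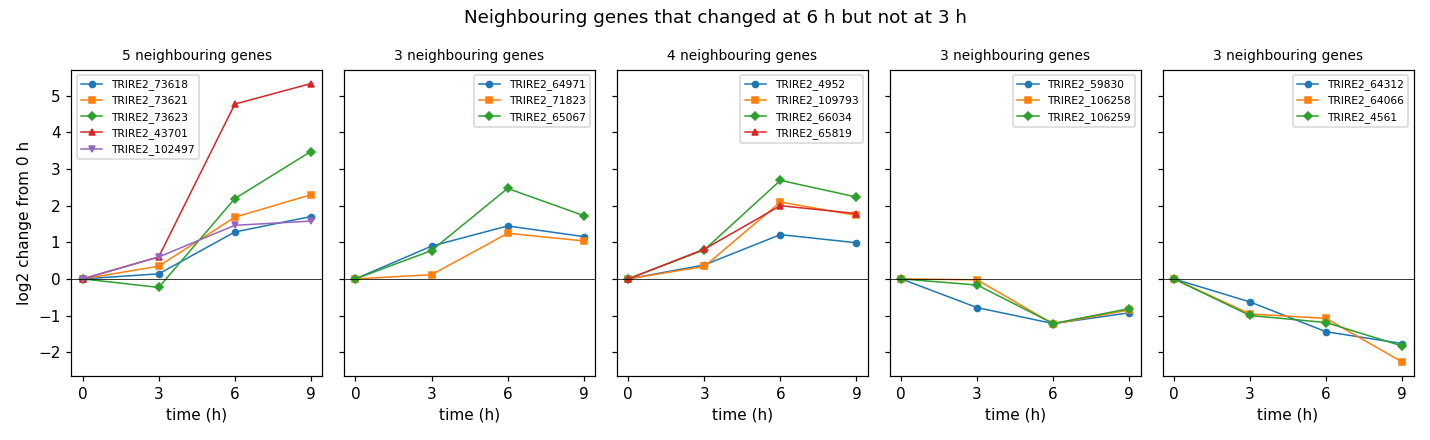
Log2 change from 0 h at 3, 6 and 9 h for the genes of the 5 runs of 3 or more neighbouring members, 1 panel per run and 1 line per gene, from means of 2 replicas. The 5-gene run stays under 1 log2 unit at 3 h and lies above it at 6 and 9 h, with TRIRE2_43701 at 4.77 and 5.33.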

How the data were processed

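Per the labels, total RNA of 4 times was hybridised to a 1-colour array, with each sample standing for 2 biological replicas. The authors deposited log2 values obtained with RMA, per the submitters' processing notes; its version and the genome build of the array are not given in the sources used here. Since RMA gives every array the same distribution, a shift of all transcripts together is lost. Per the file headers, the deposited table gives per time the mean of log2 values with its SD, and per feature a p-value. An analysis of variance from these means and SDs, adjusted over all features, gave the deposited p-value within 1% (or within its rounding) for 9123 of 9126 features with 2 replicas, and for 20 with 3, so the SD is taken as that of 2 replicas, which then lie at the mean plus or minus SD divided by the square root of 2. Which replica is which across features is unknown.

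The design had foreseen columns of single arrays. Instead, limma's moderated test (limma 3.58.1, R 4.3.3) was computed from the means and SDs in 1 fit of all 4 times, with 4 residual degrees of freedom, no covariates and Benjamini-Hochberg adjustment over 9126 features, and was tested on simulated data. It measures only the spread between 2 replicas. A call needed an adjusted p under 0.05 and a log2 change of 1 or more. The members and lists were chosen with earlier results of these data known, and 10 of the lists were made from the symbols seen in the files. Names and gene lengths come from RefSeq (QM6a, assembly v2.0): 9094 of 9122 TRIRE2 identifiers matched and 2.58% of all features had a symbol.

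Named were members of the lists, members with a symbol, and of genes without one the 6 largest rises and falls among the members and the 2 largest of the whole comparison in each direction, if their mean level was above the 25th percentile and their replicas did not overlap. The genes pap1 and ooc1, the genes of the runs, those at the bounds and 5 genes that the level filter passes over were chosen after their values were seen. A few list genes are not reported here. Alternatives were other thresholds, scalings, priors, a filter on faint features, the authors' deposited p-value and the closest replicas.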

Additional observations from a re-analysis of the deposited data

Results flagged for a closer look

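Only named genes called at 6 h against 0 h were looked at here, leaving out those chosen for differing at 6 h and not at 3 h. In 12 of them the change from mycelium differed between 6 h and 3 h by at least 1 log2 unit. All 12 also passed a test of 6 h against 3 h directly (limma's moderated test, adjusted over all features). Apart from prb1 and TRIRE2_112567 they are genes of cellulose and hemicellulose degradation, each lower at 6 h than at 3 h and above mycelium at both. Since only called genes were looked at, enzyme genes back near mycelium at 6 h could not appear among them. The log2 difference was -4.92 for cip2, -4.37 for axe1, -3.91 for cel61b, -3.90 for cel7b and -3.74 for cip1. It was -3.13 for cel12a, -3.10 for cel5a, -2.42 for man5a, -1.71 for cel61a and -1.30 for cel7a, with adjusted p between 2.84e-07 for cip2 and 9.81e-04 for cel61a. The protease gene prb1 was lower at 6 h than at 3 h by a log2 difference of -1.40, and TRIRE2_112567 by -4.15, both below mycelium at either time. Some list genes not called at 6 h met the same limits against 3 h. Examples are the beta-glucosidase genes cel3a (-4.41) and cel3c (-2.32), whose changes from mycelium at 6 h were 0.49 and 0.26. The ribosomal protein gene rla0 went the other way, with 1.08.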

How the results depend on the processing

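Of the calls at 6 h against 0 h (610 up, 390 down), a 4-fold threshold gave 169 and 95, a 1.5-fold one 1190 and 915, and leaving out faint features 393 and 188. The closest replicas in place of the means, chosen after seeing the data, gave 256 lower. Against 209 higher and 186 lower features that differed at 6 h and not at 3 h, the 4-fold threshold gave 23 and 6, the 1.5-fold one at both times 382 and 446, leaving out faint features 105 and 74, and a limit of 0.5 at 3 h 94 and 97. Taking the closest replicas of 6 h and 0 h and the farthest of 3 h and 0 h, chosen after seeing the data, left 90 higher and 46 lower. Other scalings kept all 4 counts within 1.5 times. So did a trended prior, 0 h and 6 h alone and the authors' p-value for the calls at 6 h, and a required adjusted p for the features of 6 h and not 3 h. The authors' p-value covers all 4 times, so it is not a test of 6 h against 0 h. Under median centring, quantile normalization, a trended prior and 0 h and 6 h alone, all 40 named genes checked kept direction and call, the largest move being 0.155. These 40 were all called at 6 h. List genes that were not called, and genes of the runs outside the 40, were not checked in this way. No paired analysis was possible because the labels give no replicate numbers and the table no single arrays. Leaving out each replica in turn was not run for the same reason. Low signal limits what can be said of falls and rises alike. Of the 186 lower features 112 were faint, and 21 lay in the MAT1-1 range at 6 h. Of the 209 higher features 104 were faint, and 30 lay in that range at 0 h.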
